A study of Mus musculus with 6 samples.

Results

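A set of 9 genes known as regulators or targets of the leukaemia stem cell state were followed in mouse leukaemia cells, namely Myb, Sox4, Mecom, Lmo2, Erg, Ikzf2, Eya1, Angpt1 and Cd34. They were taken by gene symbol from the probe sets annotated to a single gene, and all 9 were measured among the 19937 genes tested. Where a gene had more than 1 such probe set, which here was true of Mecom, the one with the highest mean over the 6 arrays was used. The samples were A9M cells, which are haematopoietic stem and progenitor cells (HSPCs) transformed by HoxA9 and Meis1, a mouse model of acute myeloid leukaemia that carries both genes in every sample. One group of 3 arrays came from cells treated with UNC0638 for 5 days and the other group of 3 from cells treated with DMSO, the solvent, for 5 days. UNC0638 is a small molecule inhibitor of the lysine methyltransferases G9a and GLP, which place methyl groups on lysine 9 of histone H3. All cells were grown with serum, IL3, IL6 and SCF, and the labels give no dose, no strain, no age and no statement that the numbered samples were separate cultures or clones. Technical spread alone may therefore be what the p-values and confidence intervals rest on. The intervals may then be too narrow as limits on the effect of treatment. The comparison speaks of the compound rather than of G9a alone.

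A leukaemia stem cell is the self-renewing cell that keeps the disease going, and in leukaemias driven by HoxA9 and Meis1 it resembles a myeloid progenitor that has kept or regained part of the stem cell program. Transcription factors such as Myb, Erg and the Lmo2 complex hold that program in place, the stem cell surface glycoprotein Cd34 marks progenitors in normal marrow, and the secreted ligand Angpt1 signals through the receptor Tek on stem cells and endothelium. G9a and GLP are known to silence genes during haematopoietic differentiation, and Evi1, a protein made from Mecom, is known to bind G9a.

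None of the 9 genes passed the test after UNC0638, in a comparison where limma called 134 of 19937 genes (0.672%) at an adjusted p under 0.05, with 74 higher (0.371%) and 60 lower (0.301%). Centring every array on its median turned that split to 50 higher and 65 lower. The largest differences among the 9 were those of Angpt1, which was 1.45-fold higher on the log2(intensity + 16) scale, and Cd34, which was 1.21-fold higher. Both were higher on each UNC0638 array than on any DMSO array, as was the dim gene Eya1 on the deposited values. The other 6 genes, Myb, Sox4, Mecom, Lmo2, Erg and Ikzf2, had overlapping groups. The 9 differences ran from -0.0094 for Erg to 0.53 for Angpt1, with 7 above 0 and a median of 0.10. Over all genes tested 10751 of 19937 (53.9%) were above 0, with a median of 0.012. Quantile normalization put 8 of the 9 above 0, with a median of 0.11, and median centring 6, with a median of 0.057. All genes had 45.5% above 0 and a median of -0.014 with quantile normalization, and 38.9% and -0.034 with centring. The median of the 9 was 0.056 without DMSO array 1 and 0.17, with 9 above 0, without DMSO array 2. The medians of all genes there were 0.0057 and 0.016. At an unadjusted p under 0.05 there were 2 of the 9 (Angpt1 and Cd34, both higher), against 12.7% of all genes in either direction, 6.47% higher and 6.21% lower. Groups that did not overlap were seen in 3 of the 9, all higher, against 17% of all genes in either direction, 9.59% higher and 7.4% lower.

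**Figure D1:**
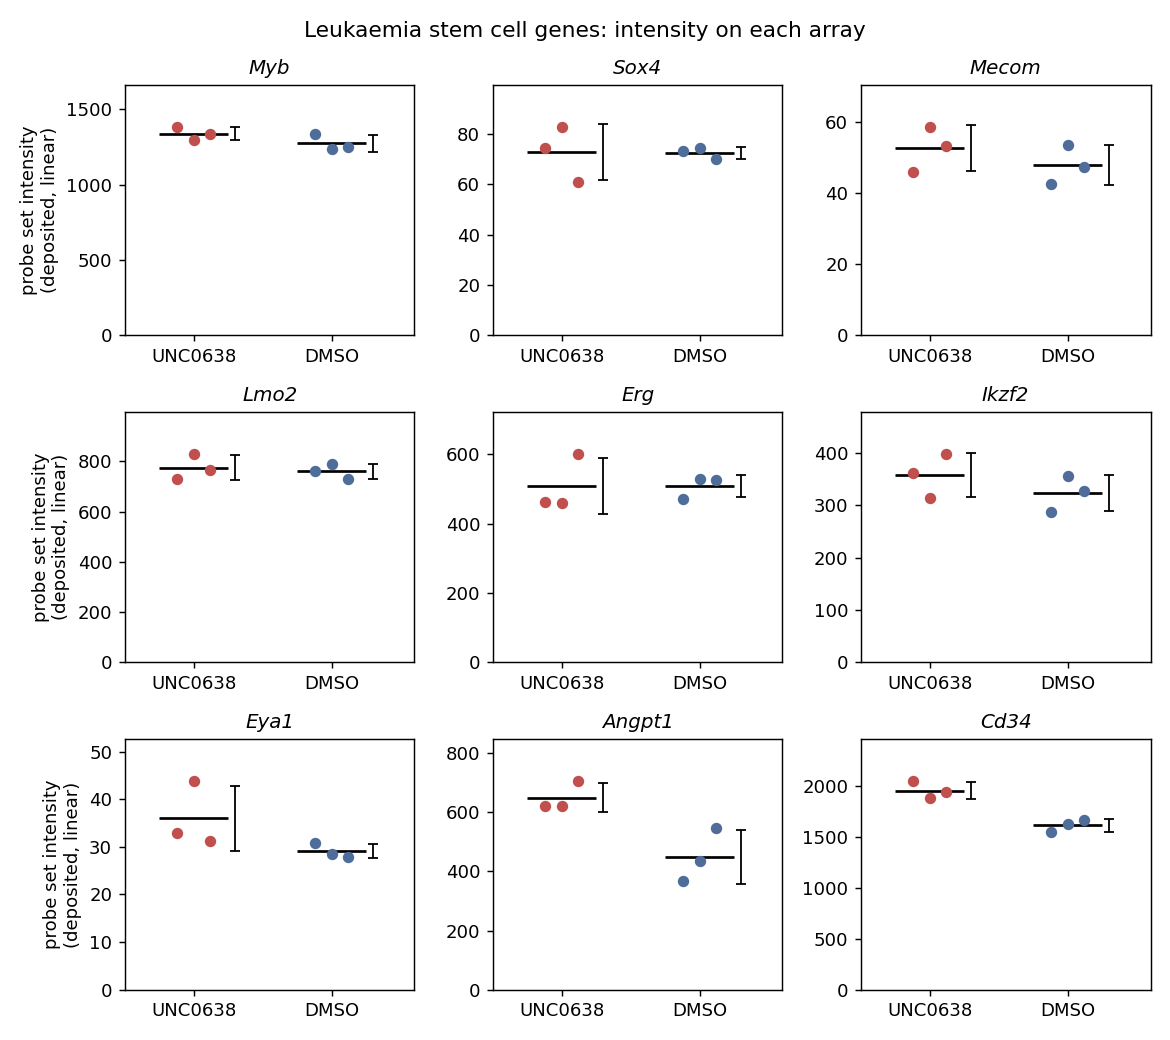
Deposited probe set intensity (linear axis from 0) of each of the 9 genes on the 3 UNC0638 and the 3 DMSO arrays. Points are arrays, horizontal bars are group means and error bars are SDs (n = 3 each). Angpt1 and Cd34 are separated between the groups, Eya1 is separated by 0.43 intensity units, and the other 6 genes overlap.

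The arrays were close in overall brightness, with median intensities of 52.7 to 54.9 with UNC0638 and 50.4 to 52.5 with DMSO, and lower quartiles of 21.6 to 22.8 with UNC0638 and 20.9 to 21.4 with DMSO. The number of arrays limits the precision. Marker lists were read against the labelled origin from haematopoietic stem and progenitor cells. All 9 measured myeloid progenitor markers lay above the median intensity of the genes tested (64.2), with summed intensities of 26845 to 28495 on UNC0638 arrays and 26707 to 28069 on DMSO arrays. None passed, although 1 did with quantile normalization, and the members of this sum moved both ways. Csf1r (log2 difference 0.52), Itgam (0.46) and Csf2rb (0.12) were higher on every UNC0638 array than on any DMSO array. Such upward separation was seen in 9.59% of all genes. Prtn3 (-0.16), Ctsg (-0.10), Ms4a3 (-0.059) and Elane (-0.045) were below 0, with overlapping groups. Of the markers of other lineages, 6 of 7 T cell, 5 of 5 B cell, 4 of 4 erythroid, 5 of 7 endothelial and 4 of 7 stromal genes lay below the median of 64.2, and no marker was at 0 on any array. Only 1 of 6 mast cell and basophil, 1 of 12 mature neutrophil and macrophage and 0 of 3 megakaryocyte genes lay below it. The 12 markers of mature neutrophils and macrophages summed to 16603 to 18401 with UNC0638 and 13834 to 15238 with DMSO. Of these, 3 (Ltf, Cxcr2 and Itgax) passed, all higher, against 0.371% of all genes called higher. Without UNC0638 array 1 the number that passed was 0, and it was 2 or 3 with any other array left out. It was 2 with median centring and 2 with a pseudocount of 64. With 1 array left out, Ltf passed only without DMSO array 2 (limma adjusted p = 0.0252, otherwise 0.0820 to 0.149). The 6 mast cell and basophil markers summed to 8977 to 9700 with UNC0638 and 7734 to 8814 with DMSO, and none passed, although 1 did with a pseudocount of 64. Mcpt8, a basophil protease, averaged 2743 ± 78.7 with UNC0638 and 2038 ± 95.5 with DMSO (SD, n = 3 each), whereas Hdc, the histamine-forming enzyme, was lower on every UNC0638 array (876, 784 and 868) than on the DMSO arrays (1255, 1062 and 1095). The 3 measured megakaryocyte markers summed to 591 to 803 with UNC0638 and 809.5 to 1053 with DMSO, and none passed. That lower sum came from Pf4, a platelet chemokine, at 427 with UNC0638 and 679 with DMSO, while Itga2b (148 and 127) and Gp9 (111 and 109) were not lower. In a culture measured in bulk, a larger share of cells of one kind and more RNA per cell cannot be told apart.

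Angpt1 encodes angiopoietin-1, the secreted ligand that activates the receptor Tek (Tie2) and is known for holding blood stem cells quiescent. It had intensities of 621, 622 and 706 on the UNC0638 arrays, against 366, 434 and 546 on the DMSO arrays. The highest DMSO array lay 74.3 units below the lowest UNC0638 array, while the DMSO arrays themselves spanned 180.4 units. The means were 649.6 ± 48.8 with UNC0638 and 449 ± 91.1 with DMSO (SD, n = 3 each). The log2 difference was 0.53 (SE 0.14, 95% confidence interval 0.22 to 0.85, limma adjusted p = 0.142). Of all genes tested, 1.67% had a larger absolute difference. The summed markers of mature neutrophils and macrophages and of mast cells and basophils, given above, were higher on the same arrays. So were the 5 dim B cell markers, which summed to 159 to 178 with UNC0638 and 142 to 148 with DMSO. The part of these marker genes in the Angpt1 difference was not tested. Stromal markers, whose cells are a known source of Angpt1, summed to 388 to 427 with UNC0638 and 349 to 402 with DMSO over 7 genes.

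Cd34 encodes a sialomucin on the surface of stem and progenitor cells, of endothelium and, in the mouse, of mast cells. Its intensities were 2052, 1880.2 and 1939 on the UNC0638 arrays, against 1549.9, 1624 and 1671 on the DMSO arrays. The groups were separated by 209 units, more than the 171 units spanned by the UNC0638 arrays and the 121 units spanned by the DMSO arrays. The means were 1957 ± 87.1 with UNC0638 and 1615 ± 61.1 with DMSO (SD, n = 3 each), which gave a log2 difference of 0.27 (SE 0.078, 95% confidence interval 0.097 to 0.45, limma adjusted p = 0.177). The difference was smaller than that of Angpt1 and the arrays were tighter, with coefficients of variation of 4.45% and 3.79% for Cd34 and 7.51% and 20.3% for Angpt1 in UNC0638 and DMSO. A larger absolute difference was seen in 10.9% of the genes tested. Endothelial markers summed to 294 to 328 with UNC0638 and 286 to 326 with DMSO over 7 genes, and Tek itself was at 16.8 to 18.3 with UNC0638 and 18.4 to 18.7 with DMSO, below the lower quartile of each array. The mast cell and basophil markers were higher as a sum on the same arrays, with Hdc lower. The dim B cell markers were also higher as a sum, and 12 of 12 mature neutrophil and macrophage markers had a log2 difference above 0. Of all genes 53.9% were above 0. Median centring left 11 of the 12 above 0, against 38.9% of all genes. The 12 differences ran from 0.035 for S100a8 to 1.23 for Cxcr2, and 7 had separated groups, against 9.59% of all genes. The part of these marker genes in the Cd34 difference was not tested.

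**Figure D2:**
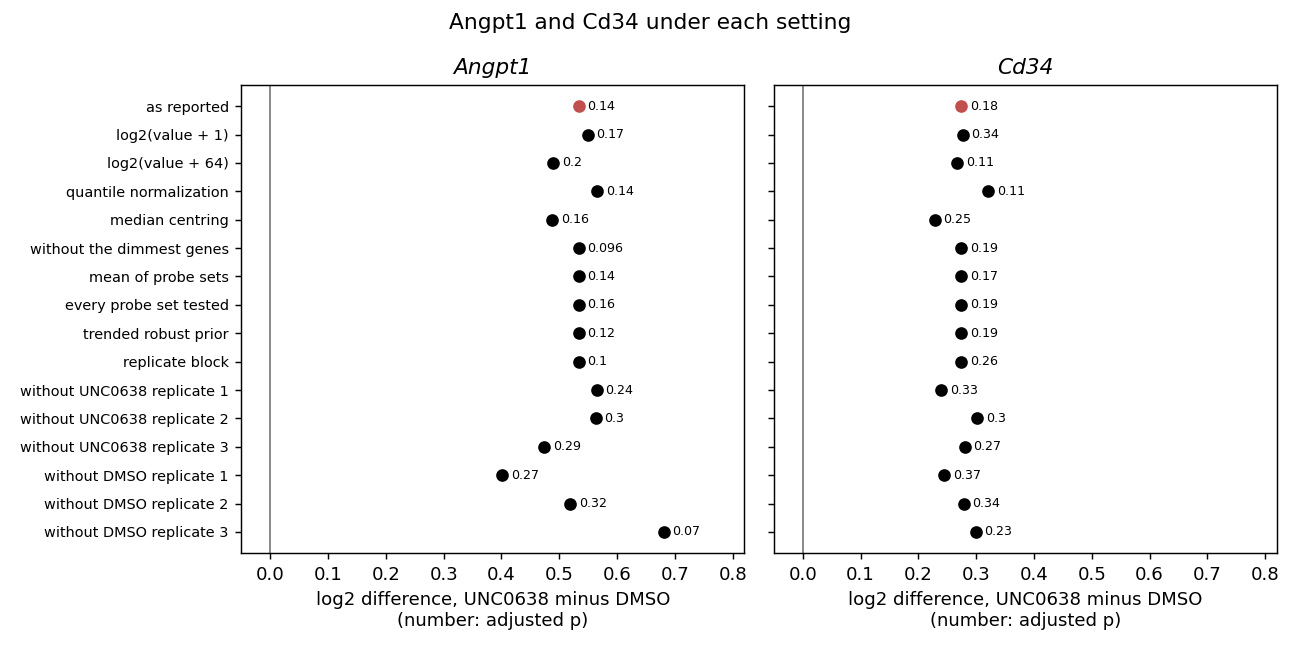
Log2 difference of Angpt1 (left) and Cd34 (right), UNC0638 minus DMSO, as reported (red) and under each of 15 other settings (black), with the adjusted p beside each point. Every value lies above 0, between 0.40 and 0.68 for Angpt1 and between 0.23 and 0.32 for Cd34, and no adjusted p is under 0.05.

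The start site regions of Cd34 and Myb are shown because Cd34 is the gene with a listed start site whose groups were separated, and Myb is a leukaemia regulator whose groups overlapped. RefSeq start sites were given for 5 of the 9 genes (Cd34, Myb, Sox4, Mecom and Erg), and Lmo2, Ikzf2, Eya1 and Angpt1 were not analysed here in this respect. Each run holds the 250 bases before the start site in the GRCm38.p6 assembly, read 5′ to 3′ along the gene's strand, at chr1:194938571-194938820 (plus strand) for Cd34 and chr10:21160985-21161234 (minus strand) for Myb. Capitals mark matches to any of 9 short motifs searched on both strands.
Cd34: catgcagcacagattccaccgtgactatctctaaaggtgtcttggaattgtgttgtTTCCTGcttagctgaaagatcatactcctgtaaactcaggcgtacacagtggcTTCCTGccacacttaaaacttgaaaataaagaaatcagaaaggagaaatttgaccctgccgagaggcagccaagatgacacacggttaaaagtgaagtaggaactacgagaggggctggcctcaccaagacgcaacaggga
Myb: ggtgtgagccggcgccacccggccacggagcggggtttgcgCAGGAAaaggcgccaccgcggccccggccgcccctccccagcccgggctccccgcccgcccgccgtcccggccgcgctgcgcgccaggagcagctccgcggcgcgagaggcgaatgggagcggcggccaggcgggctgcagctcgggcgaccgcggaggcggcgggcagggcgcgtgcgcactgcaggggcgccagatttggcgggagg
The motifs were TGACAG for the Meis core, TGATTTAT for a Hox protein with its cofactor, AACGG for the Myb core, with AACTG as its other form, GATAA for Gata factors, CAGGAA for ETS factors, with CCGGAA as their other form, AACAAAG for Sox factors, with AACAATG as their other form, none of which overlapped another in these 2 windows. Every capital belongs to CAGGAA, read as TTCCTG on the opposite strand, with 2 matches in Cd34 that begin 194 and 141 bases before the start site and 1 match in Myb that begins 209 bases before it. CAGGAA was present in 25.7% of 32851 such windows over all genes, so its presence in both is a description of the sequence. The Myb window had a GC content of 81.2% and the Cd34 window one of 46.4%. The Hox motif TGATTTAT, found in 0.837% of all windows, was in none of the 8 windows of these 5 genes, and TGACAG, found in 15.9%, was in 1 of 2 Mecom windows and 1 of 3 Erg windows.

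Myb, a transcription factor that progenitors and many myeloid leukaemias need for self-renewal, had overlapping groups. Its intensities were 1385, 1297 and 1334 on UNC0638 arrays, against 1339, 1237 and 1249 on DMSO arrays. The lowest UNC0638 array lay below the highest DMSO array. The means of 1339 ± 44.4 with UNC0638 and 1275 ± 55.8 with DMSO (SD, n = 3 each) gave a log2 difference of 0.070 (95% confidence interval -0.11 to 0.25, limma adjusted p = 0.795). The interval reaches no further than 1.19-fold in either direction.

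Lmo2, a LIM protein that bridges Tal1 or Lyl1, Gata factors and Ldb1 on DNA, was at 728, 829 and 767 with UNC0638, against 761, 789.7 and 729 with DMSO. The lowest value of the 6 arrays and the highest both came from UNC0638 cells. Its log2 difference was 0.026 (95% confidence interval -0.16 to 0.21, limma adjusted p = 0.945), an interval within 1.16-fold either way.

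Erg, an ETS factor needed to maintain blood stem cells, had 464, 460.3 and 602 with UNC0638, against 472, 529 and 526 with DMSO. UNC0638 array 3 was the highest of the 6, and the other 2 UNC0638 arrays were the lowest. Its means were 509 ± 80.7 with UNC0638 and 509 ± 32.2 with DMSO (SD, n = 3 each), and the log2 difference was -0.0094 (95% confidence interval -0.27 to 0.26, limma adjusted p = 0.988), an interval within 1.21-fold either way.

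Sox4, an HMG-box factor that promotes myeloid leukaemia when it is raised, had 74.6, 82.9 and 60.9 with UNC0638, against 73.2, 74.4 and 70.0 with DMSO. The UNC0638 arrays lay on both sides of the DMSO arrays. The log2 difference was -0.0025 (95% confidence interval -0.24 to 0.23, limma adjusted p = 0.996).

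Mecom, the locus of the zinc finger protein Evi1 and its longer form Mds1-Evi1, had 45.8, 58.7 and 53.2 with UNC0638, against 42.5, 53.6 and 47.4 with DMSO. The groups overlapped, and the log2 difference was 0.10 (95% confidence interval -0.13 to 0.34, limma adjusted p = 0.769). The other probe set of Mecom, annotated in part to other transcripts of the gene, read 26.8, 33.3 and 23.8 with UNC0638, against 25.8, 27.9 and 28.7 with DMSO. Tested alongside all single-gene probe sets, it had a difference of 0.011 (SE 0.096, limma adjusted p = 0.983). Both probe sets lay below the 64.2 units that mark the median of the genes tested, where the pseudocount of 16 shrinks differences.

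Ikzf2 encodes Helios, an Ikaros family zinc finger protein known for a role in acute myeloid leukaemia stem cells. It had 361, 314 and 398 with UNC0638, against 287, 356 and 328 with DMSO. The groups overlapped, with the highest value on an UNC0638 array and the lowest on a DMSO array. The log2 difference was 0.14 (95% confidence interval -0.12 to 0.39, limma adjusted p = 0.707), and the interval allows a change of up to 1.31-fold.

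Eya1 encodes a phosphatase and transcriptional coactivator that can immortalise myeloid progenitors. Its probe set read between the lower quartile and the median of each array, at 32.9, 43.8 and 31.2 with UNC0638, against 30.8, 28.6 and 27.9 with DMSO. All 3 UNC0638 arrays were above the DMSO arrays, by 0.43 units at the closest, a separation lost under both quantile normalization and median centring, and UNC0638 array 2 stood apart from the other 5. The log2 difference was 0.20 (95% confidence interval -0.039 to 0.43, limma adjusted p = 0.502). It was 0.092 without UNC0638 array 2.

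**Figure D3:**
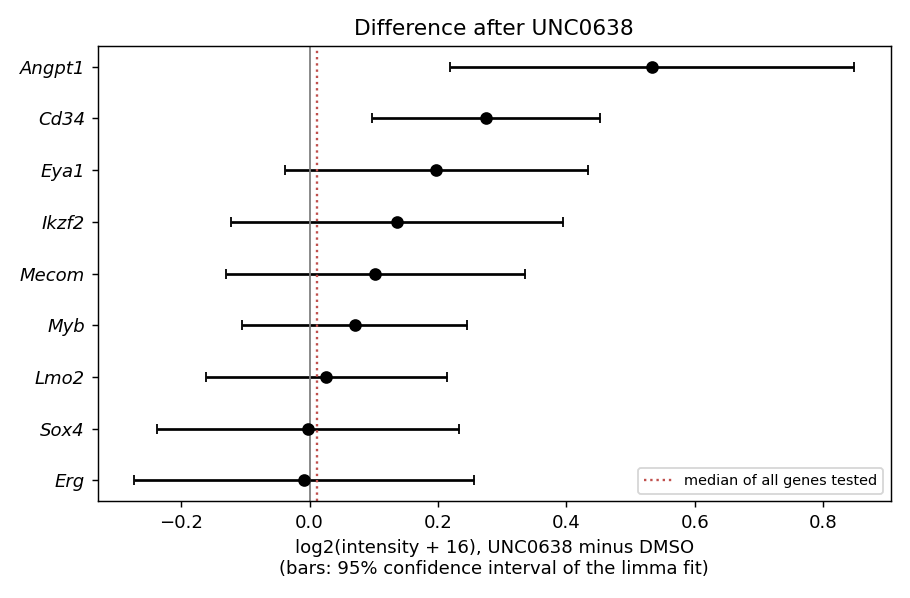
Log2 difference between UNC0638 and DMSO arrays for each of the 9 genes, with its 95% confidence interval from the limma fit (n = 3 each). The dotted line is the median of all genes tested (0.012). The intervals of Angpt1 and Cd34 lie above 0 and those of the other 7 genes include 0.

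Altogether 10 lists of relatives, partners and companion genes set these values in their pathways. They held 117 distinct measured genes, of which 1 passed the test over all genes, against 0.672% of all genes. That gene was Tcf7l2, a DNA-binding partner of beta-catenin in Wnt signalling. It had 804, 783 and 806 with UNC0638, against 531, 493 and 473 with DMSO. The groups were far apart relative to their spread, and it rose by 0.66 on the log2 scale (SE 0.078, limma adjusted p = 0.0128). The call was lost in 4 of 15 other settings, each with 1 array left out (adjusted p 0.0577 to 0.0724 without UNC0638 array 1, 2 or 3 and 0.0555 without DMSO array 2). The other 6 measured genes of the Sox4 list, the SoxC relatives Sox11 and Sox12, Ctnnb1, Lef1, Tcf7l1 and Cebpa, had differences of -0.067 to 0.042 and none passed.

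Of the surface genes of progenitors, listed with the Cd34 relatives Podxl and Podxl2, 0 of 14 passed. Their median log2 difference of 0.17 was 0.099 without UNC0638 array 3 and 0.097 with a pseudocount of 64, and the T cell markers (7 of 7) and B cell markers (4 of 5) were mostly above 0 as well. Of the 14 differences 13 were above 0, with a median of 0.17, against 10751 of 19937 and 0.012 for all genes. Centring each array on its median left 11 of 14 above 0 with a median of 0.12, when the median of all genes was -0.034. Cd27, a receptor of the tumour necrosis factor family, had the largest difference, with 595, 603 and 567 with UNC0638, against 465, 497 and 383 with DMSO (0.39, limma adjusted p = 0.154). Cd47, the signal that holds off phagocytes, was at 4311 ± 238 with UNC0638 and 3840.0 ± 598 with DMSO (SD, n = 3 each, log2 difference 0.18, limma adjusted p = 0.637). The difference was 0.041 without DMSO array 2 and 0.093 when its probe sets were averaged. The groups did not overlap in 6 of the 14, all higher with UNC0638, against 9.59% of all genes. The stem cell factor receptor Kit was at 0.033 and the cytokine receptor Flt3 at 0.073 on the log2 scale.

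Among the angiopoietin and Tie genes, 0 of 8 passed and the differences ran from -0.35 to 0.15. Angpt2, the antagonist of Angpt1 at Tek, read 31.6, 29.2 and 36.2 with UNC0638, against 34.2, 59.5 and 45.9 with DMSO. These groups overlapped at a dim level (log2 difference -0.35, limma adjusted p = 0.350). Angptl4, a secreted inhibitor of lipoprotein lipase, was at -0.18 (adjusted p = 0.672), with -0.062 without DMSO array 2 and -0.32 without DMSO array 1.

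Of 13 measured relatives, partners and targets of Myb, 0 passed, with 8 above 0 and a median of 0.033 (6 above 0 and a median of -0.012 with median centring). With that centring 38.9% of all genes were above 0 and their median was -0.034. Myc, the growth regulator, had 2026, 2331 and 2257 with UNC0638, against 2963, 3251 and 2823 with DMSO. Every UNC0638 array was below every DMSO array, and the log2 difference was -0.45 (SE 0.091, limma adjusted p = 0.0808). That difference passed with a trended robust prior (adjusted p = 0.0399) and in none of 14 other alternatives. Mpo, the granule peroxidase of myeloid progenitors, was at 6322 ± 148 with UNC0638 and 6031 ± 191 with DMSO (SD, n = 3 each, log2 difference 0.068, limma adjusted p = 0.794).

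In the Lmo2 complex list 0 of 13 genes passed. The adaptor Ldb1 was at 685 ± 95.6 with UNC0638 and 805 ± 86.4 with DMSO (SD, n = 3 each, log2 difference -0.23, limma adjusted p = 0.513), and the dim paralogue Lmo1 was at -0.27 (adjusted p = 0.341). In the ETS list 0 of 15 passed. Etv3, an ETS repressor, had the largest difference at 0.42 (limma adjusted p = 0.123), and Fli1, the closest relative of Erg, was at 1677 ± 45.5 with UNC0638 and 1633 ± 49.4 with DMSO (0.038, adjusted p = 0.905). In the list of Eya relatives and partners 0 of 9 passed, with Eya2 at 0.17 (limma adjusted p = 0.597) and Eya3 at 0.097 (adjusted p = 0.763).

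Of the 9 measured relatives and partners of Mecom, 0 passed. Ehmt2, the gene of G9a itself, was at 101 ± 2.40 with UNC0638 and 123 ± 13.0 with DMSO (SD, n = 3 each, log2 difference -0.25, limma adjusted p = 0.293). Every UNC0638 array was below every DMSO array for Ehmt2, as for 7.4% of all genes. The compound inhibits the enzyme and not its transcript, so the Ehmt2 value does not check the treatment. In the list of Ikaros relatives and NuRD subunits, the chromatin complex that Ikaros proteins recruit, 0 of 13 passed and the median was -0.13. It was -0.0020 without DMSO array 2, -0.054 without UNC0638 array 2 and -0.067 without DMSO array 3. Median centring put it at -0.17, and it was -0.15 without DMSO array 1. The groups did not overlap in 4 of the 13, all lower, against 7.4% of all genes lower. After quantile normalization that number was 0. The histone deacetylase Hdac1 was at -0.16 (limma adjusted p = 0.475) and the histone-binding subunit Rbbp7 at -0.27 (limma adjusted p = 0.358). The Hdac1 value was -0.35 when its probe sets were averaged, and Rbbp7 was at -0.16 without UNC0638 array 2. Both genes were lower on every UNC0638 array than on any DMSO array, also with median centring. Their groups overlapped after quantile normalization. Of 25 other leukaemia stem cell genes 0 passed, with 14 above 0 and a median of 0.014 (12 above 0 and a median of -0.032 with median centring). All genes had a median of -0.034 with that centring, and 38.9% of them were above 0. The cofactor Meis1, one of the transforming genes, was at 3037 ± 47.9 with UNC0638 and 3029 ± 49.6 with DMSO (SD, n = 3 each, log2 difference 0.0036, limma adjusted p = 0.993). Whether its probe set reads the transforming copy, the cell's own gene or both was not tested.

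**Figure D4:**
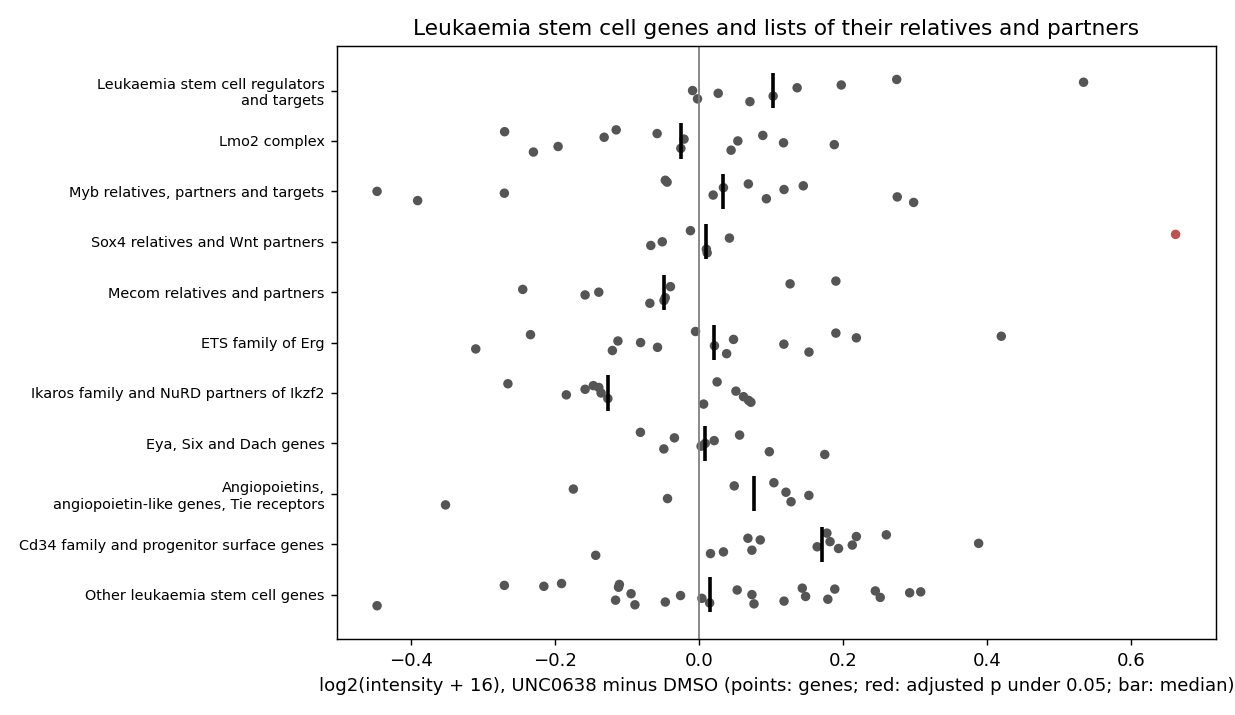
Log2 difference between UNC0638 and DMSO arrays for the 9 genes (top row) and for 10 lists of their relatives and partners. Points are genes, red marks an adjusted p under 0.05 (Tcf7l2 alone) and bars are medians. The list of progenitor surface genes has a median of 0.17 and the other medians lie between -0.13 and 0.10.

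Angpt1, the gene with the largest difference, was set beside 9968 other genes with a mean intensity at or above the median. Likeness was the root mean square distance between the log2 values of the 6 arrays after each gene was centred on its own mean. The closest was Pxylp1, a phosphatase of proteoglycan synthesis, at a distance of 0.079, with 197, 203 and 197 in UNC0638 cells, against 111, 124 and 155 in DMSO cells. Next was the adhesion molecule Alcam at 0.083, with 339, 363 and 409 in UNC0638 cells, against 193, 214 and 274 in DMSO cells. The ribonucleotide reductase subunit Rrm2b followed at 0.085, with 192, 189.6 and 209.7 in UNC0638 cells, against 111, 141 and 146 in DMSO cells. None of the 3 passed the limma test (adjusted p 0.0703 to 0.0804), and their separated groups follow from how they were chosen.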

How the data were processed

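Total RNA was extracted with Trizol and biotinylated cRNA was hybridised to Affymetrix arrays, per the labels' protocols. What the authors deposited is a processed intensity for each probe set on 6 arrays, 3 UNC0638 and 3 DMSO. No source used here gives the authors' summarisation or normalization, and the linear scale was read from the values. Such steps can shrink differences of dim probe sets. Of 34760 probe sets, 21640 had 1 gene symbol, 1321 several and 11799 none in the platform annotation, and 0 symbols changed when looked up by Entrez number in the GRCm38.p6 gene table. Probe sets with several symbols or none were left out, and the brightest per gene was kept. Values were transformed as log2(value + 16) and tested with limma 3.58.1 (R 4.3.3), lmFit and eBayes on group alone, Benjamini-Hochberg over 19937 genes, threshold 0.05, after the procedure was tested on simulated data. Groups came from sample titles. The genes, lists and alternatives were chosen with earlier results of these data known. Of 205 list and marker entries 186 were measured. Named beside the 9 genes were every list gene past the threshold or, with none, those with the largest difference and the highest mean, and the 3 genes most like the member with the largest difference. Tek, Kit, Flt3 and the remaining Sox4 list and marker genes were named after their values were seen. Promoters came from RefSeq. Alternatives were pseudocounts of 1 and 64, quantile normalization, median centring, leaving out the dimmest 40% of genes, other uses of probe sets, a trended robust prior, a replicate block and each array left out. Figures used matplotlib 3.10.9.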

Additional observations from a re-analysis of the deposited data

How the results depend on the processing

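In 15 alternatives none of the 9 genes passed, and the adjusted p of Angpt1 ran from 0.0703 to 0.323 and that of Cd34 from 0.106 to 0.37. Angpt1, Cd34, Eya1, Ikzf2, Mecom and Myb stayed above 0 wherever they were tested, and Eya1 was not tested once the dimmest genes were left out. The signs of near-zero genes turned: Sox4 was at 7.9e-05 with a pseudocount of 64, Erg at 0.021 with quantile normalization, and Lmo2, Fli1 and Meis1 at -0.020, -0.0080 and -0.042 with median centring. Median centring put the median of all genes at -0.034. With 1 array left out, Sox4 ran from -0.084 to 0.098, Erg from -0.13 to 0.055, Lmo2 from -0.023 to 0.069 and Meis1 from -0.0095 to 0.017. Eya1 ran from 0.092 to 0.26, Ikzf2 from 0.056 to 0.22 and Mecom from 0.039 to 0.18. The 134 changed genes became 49 with a pseudocount of 64, 73 with a replicate block and 10 to 69 with 1 array left out, which leaves fewer samples. The share of rises among the calls was 55.2%, against 43.5% with median centring, 61.4% and 65.3% with pseudocounts of 1 and 64. Genes of the 9 without overlap numbered 3 to 5 with 1 array left out, where overlap is easier to avoid, and the 5 without UNC0638 array 3 included 1 lower gene. Median centring left 2, and Eya1 overlapped there and after quantile normalization, which separated Myb instead. Among related genes, Ldb1 was at -0.12 and Eya3 at 0.020 without UNC0638 array 2, and Eya2 at 0.10 without DMSO array 1. Sample titles carry the numbers 1 to 3 in both groups, but same-numbered arrays deviated together with correlations of -0.066, 0.11 and 0.017, so the numbers were not taken to pair them. With the replicate block Angpt1 had an adjusted p of 0.105 and Cd34 of 0.263, and the block changed no call among the 9. Dim probe sets (Eya1, Mecom, Sox4) limit what can be seen.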
